A study of Mus musculus with 4 samples.

Results

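The Notch genes described here are 10 core members of the pathway: the receptor genes Notch1, Notch2 and Notch3, the ligand genes Dll1, Dll3 and Jag1, the receptor-modifying enzyme gene Lfng, and the target genes Hes1, Hes5 and Hey1. They were chosen by name and found by their Ensembl gene identifiers among the 28765 genes of an RNA sequencing table of mouse embryos. All 10 were in the table, and all 10 were among the 12940 genes whose mean over the 4 libraries reached 1 FPKM, a level scaled to gene length and sequencing depth. The study addressed neural tube defects (NTD), in which the neural tube fails to close, in embryos of CD-1 mice, an outbred strain. The tissues were labelled brain and spine, each from embryos with NTD and from controls, with 1 library in each of the 4 groups.

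The NTD brain and NTD spine groups came from embryos of CD-1 parents, obtained at 7 to 8 weeks of age and kept for over 8 weeks on food low in folate. Their mothers received methotrexate (MTX, an inhibitor of dihydrofolate reductase, which blocks folate use) into the abdominal cavity at 1.5 mg/kg on embryonic day E7.5, and embryos showing NTD were taken on E9.5. The control brain and control spine groups were CD-1 embryos of the same day. Their entries carry the same text on age, husbandry and injection, and the sources used here do not say whether control mothers ate the low-folate food or were injected with anything. Nor do they give the number of embryos in a library, their pooling and sex, or where the tissues were cut. Within a tissue, 1 library per group leaves no spread between libraries to test a difference against. Each fold below carries a 95% exact binomial interval on the recovered reads, which covers counting error only and not the spread between embryos.

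Notch is a receptor that is cut after a ligand on a neighbouring cell pulls on it, which frees its intracellular part to enter the nucleus. There it joins the DNA-binding protein RBPJ and Mastermind-like co-activators and turns on Hes and Hey genes, whose products repress transcription. In the neural tube, Hes proteins keep progenitors from differentiating by repressing proneural genes, and the proneural proteins in turn activate Delta ligands. In the presomitic mesoderm of the trunk, oscillating Notch activity sets the pace of somite formation.

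The promoters of Hes5 and Lfng are shown because these were the only members lower in NTD tissue in both brain and spine by more than counting error. Among the 8 members for which a window was found, theirs were also the only windows with the core letters of an RBPJ site. The windows run from 250 bases before to 50 bases after the RefSeq start of the gene on build GRCm38.p6, plus strand, 5′ to 3′, and capitals mark GTGGGAA or its reverse complement TTCCCAC.
Hes5, chr4:154960673-154960972: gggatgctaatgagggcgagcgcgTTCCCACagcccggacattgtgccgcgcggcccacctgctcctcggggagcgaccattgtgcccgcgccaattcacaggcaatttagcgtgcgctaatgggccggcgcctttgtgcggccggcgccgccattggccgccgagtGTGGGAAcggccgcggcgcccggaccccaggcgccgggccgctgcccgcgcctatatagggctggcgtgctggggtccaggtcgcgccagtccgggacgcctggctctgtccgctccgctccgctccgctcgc
Lfng, chr5:140607091-140607390: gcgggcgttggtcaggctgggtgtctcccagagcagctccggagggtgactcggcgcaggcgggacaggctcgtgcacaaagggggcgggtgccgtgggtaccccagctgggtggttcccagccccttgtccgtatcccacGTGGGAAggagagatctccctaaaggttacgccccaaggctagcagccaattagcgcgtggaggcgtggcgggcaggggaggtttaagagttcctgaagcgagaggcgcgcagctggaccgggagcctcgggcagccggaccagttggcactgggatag
Hes5 had 2 matches, beginning 226 bases before the start (in the reverse orientation) and 83 bases before it. Lfng had 1 match, beginning 109 bases before the start, where its first 3 bases are shared with the E-box palindrome CACGTG. Of 32851 RefSeq windows of 300 bases searched on both strands, 6.38% held at least 1 match and 0.256% held 2 or more. Windows were found for 8 of the 10 members, 9 windows in all, and 2 of the 9 held a match. Hes1 and Hey1 were not matched in that set. Outside the members, Hey2 also had 2 matches. Its brain level was above the control in the NTD library, at a fold of 1.30 with an interval of 1.05 to 1.63. Its spine interval included equality. Hes7 had 1 match but averaged under 1 FPKM. Windows of Nrarp, Hes6 and Rbpj held no match, and the counting intervals put each of these genes lower in both NTD tissues. Dll4, without a match, lay within counting error in both. Whether matches go with lower levels was not tested. All these matches describe letters, not bound sites.

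The libraries were close in depth, with 16272101 to 16911677 reads recovered from the FPKM values and 23389 to 24034 genes above 0. The brain and spine labels were checked against regional markers. Summed FPKM of 8 forebrain and midbrain genes was 76.2 in NTD brain and 84.0 in control brain, against 7.95 in NTD spine and 14.2 in control spine. For 9 trunk Hox genes the sums were 11.4 in NTD brain and 0.203 in control brain, where Hoxb7, Hoxb8, Hoxc9 and Hoxa7 were at 0, and 170 in NTD spine and 162 in control spine. The markers followed the labels, and NTD brain stood above control brain in all 9 trunk genes. Heart markers, 8 of 8 higher in NTD brain, summed to 197 FPKM in NTD brain and 47.5 FPKM in control brain, and 7 of 8 were lower in NTD spine, at 468 FPKM against 696 FPKM in control spine. Endoderm markers, 5 of 6 lower in NTD spine, summed to 40.0 FPKM there and 125 FPKM in control spine. In brain they summed to 4.59 FPKM in the NTD library, where Apoa1 and Apoa2 were at 0, and 6.12 FPKM in the control, where Afp, Ttr and Apoa2 were. Most of these brain sums was Foxa2, at 3.33 FPKM in NTD brain and 5.09 FPKM in control brain. By gene, 2 of the 6 were lower and 3 higher in NTD brain. Primitive erythroid markers, 5 of 7 higher in NTD brain and 7 of 7 lower in NTD spine, summed to 4393 FPKM in NTD brain and 4050 FPKM in control brain, then 3310 FPKM in NTD spine and 6287 FPKM in control spine. Of all tested genes 43.6% were higher in NTD brain and 58.0% were lower in NTD spine. The part of these markers in the results below was not tested. The samples are bulk tissue, so fewer cells of a type and less RNA per cell cannot be told apart.

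In brain, 9 of the 10 members were lower in the NTD library and Jag1 was higher. None reached 2-fold on the scale of FPKM + 1, where 0.781% of tested genes were at least 2-fold lower and 0.804% at least 2-fold higher, 1.58% in all. Among the 11199 protein-coding genes tested, 9 were at least 2-fold lower and 35 higher. A lower value of any size was found in 56.4% of tested genes and a higher one in 43.6%, and a lower value whose counting interval left out equality in 25.8%. By the interval, 8 members were lower (all of the 9 but Hey1), and Jag1 was higher, as were 16.1% of genes. The members' median log2 ratio of FPKM + 1 was -0.27, beside -0.03 for all tested genes, and -0.11 after adjustment for GC content and length.

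In spine, 6 members were lower in the NTD library and 4 higher, against 58.0% of tested genes lower and 41.9% higher. Hes5 was the 1 member at least 2-fold different, which it was not after adjustment for GC content and length (log2 ratio -0.88) or with a pseudocount of 5 (-0.57). At least 2-fold lower were 0.680% of tested genes and at least 2-fold higher 0.649%, 1.33% in all, while of the 11199 protein-coding genes 31 were at least 2-fold lower and 11 higher. By the interval 3 members were lower (Lfng, Hes5 and Hey1), as were 26.6% of genes, and 2 were higher (Notch1 and Jag1), as were 17.2%. The members' median was -0.02, beside -0.04 for all genes, and 0.085 after the adjustment.

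Over both tissues together, a limma fit of log2 values of FPKM + 1 with tissue as a block, added after the data were seen, set the NTD difference common to brain and spine against how far it differed between them, on 1 residual degree of freedom per gene. The SEs and p-values below use a variance that limma shrank toward that of all genes, with 2.56 prior degrees of freedom. The fit takes the tissues as replicates of the condition, and the sources used here do not say whether they came from the same embryos. At a Benjamini-Hochberg adjusted p under 0.05 it called 0 of the 12940 genes (0.00%), and 2423 (18.7%) had an unadjusted p under 0.05, among them the members Hes5 and Lfng. The common log2 difference was -0.95 ± 0.10 (SE) for Hes5 (limma adjusted p = 0.144), -0.39 ± 0.07 for Lfng (adjusted p = 0.189) and 0.19 ± 0.07 for Jag1 (adjusted p = 0.271). The adjusted p of the other 7 members lay between 0.275 for Dll3 and 0.911 for Notch1. With a pseudocount of 5 the fit called 83 genes, Hes5 among them (adjusted p = 0.0419).

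**Figure D1:**
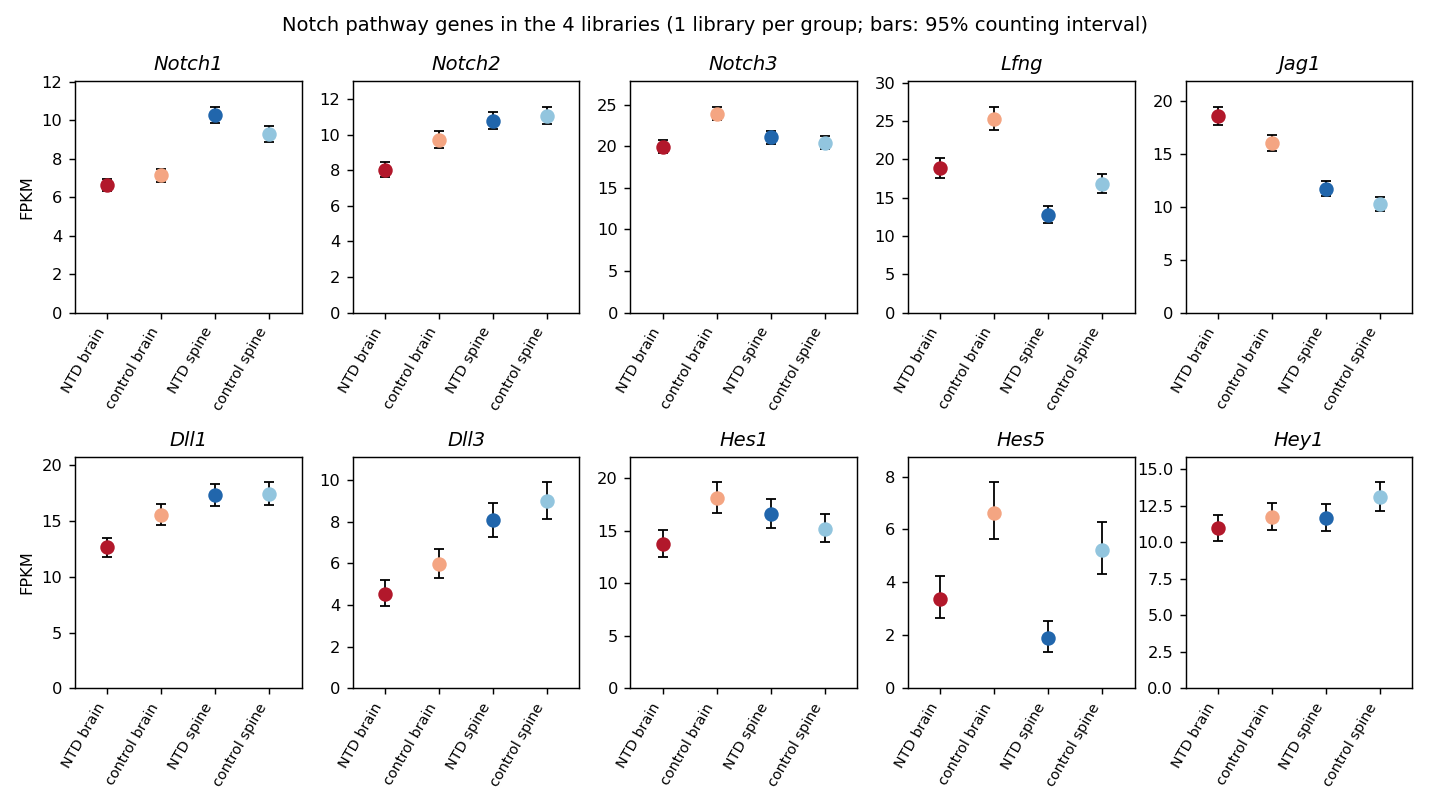
FPKM of each of the 10 Notch genes (1 panel per gene) in the NTD brain, control brain, NTD spine and control spine libraries, 1 library per group, with 95% Poisson counting intervals as error bars. Hes5 stands at 3.39 and 1.90 FPKM in the NTD libraries and at 6.64 and 5.23 FPKM in the control libraries, while Jag1 is above its control in both tissues.

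Among the receptors, Notch3 had the highest level in every library. Notch3 (ENSMUSG00000038146, chr17:32120820-32166852, minus strand) is a receptor strong in vessel-wall cells and also present in neural progenitors. It stood at 19.98 FPKM (2662 reads) in NTD brain, against 23.9 FPKM (3274 reads) in control brain, and at 21.1 FPKM (2836 reads) in NTD spine, against 20.4 FPKM (2688 reads) in control spine. It was 1.20-fold lower in NTD brain (1.14 to 1.26) and 1.03-fold higher in NTD spine, where the interval of 0.980 to 1.09 includes equality. Control brain was the high library, and among the other 3 the counting intervals of neighbouring levels ran into each other.

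Notch1 (ENSMUSG00000026923, chr2:26457903-26516663, minus strand) encodes the main receptor of neural progenitors and of somite formation. Notch1 levels were 6.63 FPKM (1553 reads) in NTD brain and 7.13 FPKM (1716 reads) in control brain, a level 1.08-fold lower (1.004 to 1.15). They were 10.3 FPKM (2431 reads) in NTD spine and 9.28 FPKM (2150 reads) in control spine, a level 1.11-fold higher (1.05 to 1.17). Both spine libraries lay above both brain libraries, and the direction between NTD and control was opposite in the tissues, though after adjustment for GC content and length Notch1 stood at a log2 ratio of 0.02 in brain and 0.18 in spine.

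Notch2 (ENSMUSG00000027878, chr3:98013527-98150361, plus strand), a broadly expressed receptor, stood at 8.03 FPKM (1426 reads) in NTD brain, against 9.71 FPKM (1771 reads) in control brain. In spine it stood at 10.8 FPKM (1928 reads) in the NTD library, against 11.1 FPKM (1940 reads) in the control. It was 1.21-fold lower in NTD brain (1.13 to 1.30) and 1.03-fold lower in NTD spine (0.964 to 1.09), the spine value within counting error. Notch4, the endothelial receptor, stayed near the floor of the family, at 1.85 FPKM in NTD brain and 2.35 FPKM in control brain and at 2.82 FPKM in NTD spine and 3.09 FPKM in control spine. Summed over the 4 receptors, the level was 36.5 FPKM in NTD brain and 43.1 FPKM in control brain, with 45.0 FPKM in NTD spine and 43.9 FPKM in control spine. The summed receptor FPKM was thus lower in NTD brain and near its control in NTD spine. Notch3 made up 54.8%, 55.5%, 46.9% and 46.6% of that sum in NTD brain, control brain, NTD spine and control spine. These sums are not adjusted for GC content and length. With that adjustment the brain log2 ratios were 0.02 for Notch1, -0.09 for Notch2, -0.10 for Notch3 and -0.08 for Notch4. Without it they were -0.09, -0.25, -0.25 and -0.23.

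For the ligands, the Delta genes were lower in NTD brain and Jag1 was higher in both NTD tissues. The brain log2 ratios of Dll1 and Dll3 were -0.28 and -0.33. After adjustment for GC content and length they were -0.16 and -0.13. Dll1 (ENSMUSG00000014773, chr17:15367354-15376872, minus strand) encodes the Delta ligand that nascent neurons and presomitic mesoderm present to their neighbours. Its level was 12.6 FPKM (878 reads) in NTD brain, against 15.6 FPKM (1112 reads) in control brain, 1.23-fold lower (1.13 to 1.35). In spine the levels were 17.4 FPKM (1216 reads) in the NTD library and 17.5 FPKM (1198 reads) in the control, a fold of 1.01 lower with an interval of 0.927 to 1.09. NTD brain was the low library and the spine libraries could not be told apart by counting.

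Dll3 (ENSMUSG00000003436, chr7:28293553-28302238, minus strand) encodes a divergent Delta protein that acts inside the cell and does not activate Notch on neighbours, and which somite formation requires. Dll3 stood at 4.54 FPKM (213 reads) in NTD brain, against 5.95 FPKM (287 reads) in control brain, 1.31-fold lower (1.10 to 1.57). It stood at 8.05 FPKM (381 reads) in NTD spine, against 8.97 FPKM (416 reads) in control spine, 1.11-fold lower with an interval of 0.967 to 1.28. Its order over the libraries was the same as that of Dll1, with control spine highest and NTD brain lowest.

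Jag1 (ENSMUSG00000027276, chr2:137081456-137116644, minus strand) encodes a ligand of the Serrate type, used in vessels, sensory patches and some neural tube domains. It had 18.6 FPKM (1782 reads) in NTD brain, against 16.0 FPKM (1577 reads) in control brain, and 11.7 FPKM (1134 reads) in NTD spine, against 10.2 FPKM (970 reads) in control spine. The folds were 1.16 higher in brain (1.08 to 1.24) and 1.15 higher in spine (1.05 to 1.25). It was the member with the highest ratio in both tissues, and 89.0% of tested genes had a lower log2 ratio in brain and 87.5% in spine. All 4 of its levels were separated by their counting intervals, with brain above spine and NTD above control.

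The balance of the ligands differed between the tissues and, in brain, between NTD and control. The ratio of Jag1 to Dll1 FPKM was 1.47 in NTD brain (1.35 to 1.60), against 1.03 in control brain (0.950 to 1.11). It was 0.675 in NTD spine (0.622 to 0.733) and 0.586 in control spine (0.538 to 0.639), with intervals that overlapped. After adjustment for GC content and length, the NTD log2 ratios of Jag1 and Dll1 were 0.23 and -0.16 in brain. In spine they were 0.19 and 0.11. Jag1 made up 45.1% of the summed level of 5 ligands in NTD brain and 36.3% in control brain, while the sums themselves were 41.2 FPKM in NTD brain and 44.0 FPKM in control brain. In spine its share was 26.4% of 44.4 FPKM in the NTD library and 23.4% of 43.6 FPKM in the control. The minor ligands stood lower. Dll4, an endothelial ligand, was at 1.77 FPKM in NTD brain and 2.26 FPKM in control brain, and at 2.61 FPKM in NTD spine and 2.43 FPKM in control spine. Markers of endothelium, in which Dll4, Jag1 and Notch4 are used, summed over 9 genes to 73.6 FPKM in NTD brain and 80.1 FPKM in control brain. In spine they summed to 93.2 FPKM in the NTD library and 89.8 FPKM in the control. Of the 9, 4 were higher in NTD brain and 6 in NTD spine, beside 43.6% and 41.9% of tested genes.

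**Figure D2:**
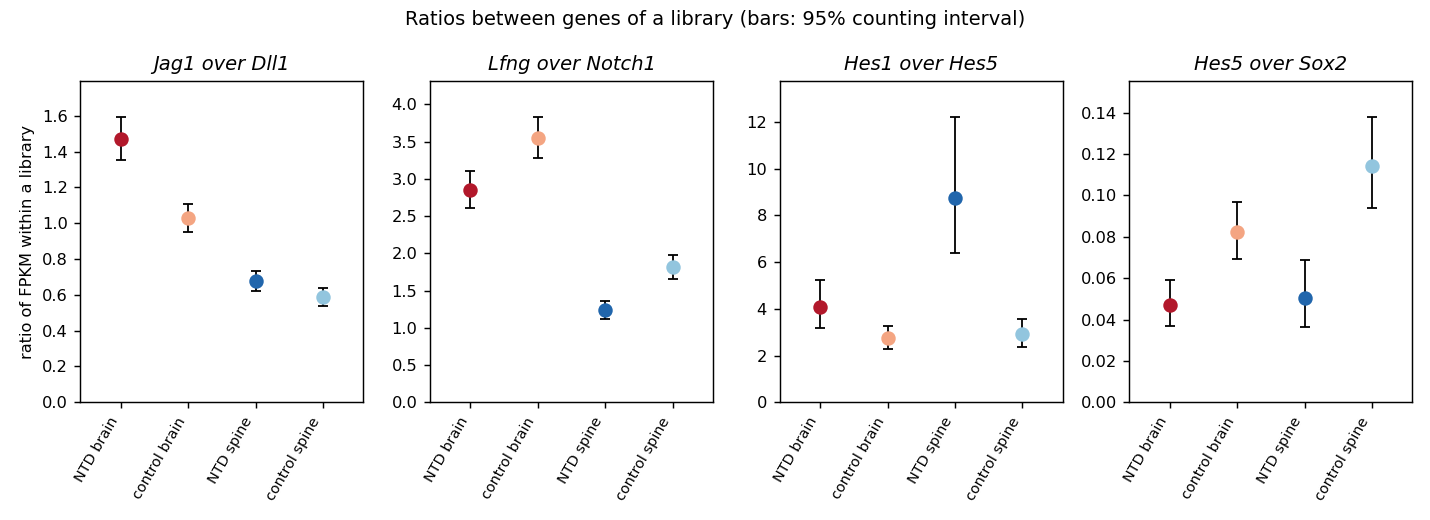
FPKM ratios within each library for Jag1 over Dll1, Lfng over Notch1, Hes1 over Hes5 and Hes5 over Sox2 (1 panel each, linear axes from 0), with 95% counting intervals as error bars. Jag1 over Dll1 is 1.47 in NTD brain and 1.03 in control brain, and Hes1 over Hes5 is 8.75 in NTD spine and 2.90 in control spine.

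Lfng (ENSMUSG00000029570, chr5:140607320-140615545, plus strand) encodes Lunatic fringe, a Golgi enzyme that lengthens sugars on Notch and so shifts its response between Delta and Jagged ligands. It stood at 18.8 FPKM (777 reads) in NTD brain, against 25.3 FPKM (1072 reads) in control brain, and at 12.7 FPKM (529 reads) in NTD spine, against 16.8 FPKM (686 reads) in control spine. The level was 1.34-fold lower in NTD brain (1.22 to 1.48) and 1.32-fold lower in NTD spine (1.18 to 1.49). Of the tested genes, 5.77% had a lower log2 ratio than Lfng in brain and 8.09% in spine. Each NTD library was below its control, and NTD brain lay near control spine. The ratio of Lfng to its substrate Notch1 was 2.84 in NTD brain (2.60 to 3.10) and 3.55 in control brain (3.29 to 3.83), and 1.24 in NTD spine (1.12 to 1.36) and 1.81 in control spine (1.66 to 1.98).

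The other fringe enzymes, which act on the same sugars, were partly alike. Mfng was at 9.69 FPKM in NTD brain and 12.4 FPKM in control brain, 1.28-fold lower (1.13 to 1.45), and at 6.15 FPKM in NTD spine and 9.03 FPKM in control spine, 1.47-fold lower (1.26 to 1.71). Rfng was at 8.76 FPKM in NTD brain and 8.67 FPKM in control brain, a fold of 1.01 (0.871 to 1.17), and at 7.02 FPKM in NTD spine and 9.63 FPKM in control spine, 1.37-fold lower (1.18 to 1.60). In sum the 3 fringe genes gave 37.3 FPKM in NTD brain and 46.4 FPKM in control brain, with 25.9 FPKM in NTD spine and 35.5 FPKM in control spine.

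Hes5 had the lowest NTD ratio of the members in both tissues. Hes5 (ENSMUSG00000048001, chr4:154960923-154962371, plus strand), whose promoter is printed above, is a repressor that in the embryo marks Notch-responding neural progenitors. It was at 3.39 FPKM (76 reads) in NTD brain, against 6.64 FPKM (153 reads) in control brain, and at 1.90 FPKM (43 reads) in NTD spine, against 5.23 FPKM (116 reads) in control spine. Both NTD libraries lay below both controls, and the counting intervals of the controls ran into each other while those of the NTD libraries were separate. The level was 1.96-fold lower in NTD brain (1.48 to 2.62) and 2.75-fold lower in NTD spine (1.92 to 4.003). On the scale of FPKM + 1 the log2 ratios were -0.80 and -1.10, and 1.24% of tested genes in brain and 0.510% in spine had a lower one. Hes5 was also the member with the fewest reads. In the annotation 433 of its 1363 exon bases (31.8%) lie opposite exons of Gm20421, and the sources used here do not say whether counting used strand, so reads from that stretch cannot be assigned to either gene.

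Hes1 (ENSMUSG00000022528, chr16:30064384-30067796, plus strand) encodes a related repressor that is less strictly tied to Notch and is also present outside the neural tube. Hes1 had 13.7 FPKM (461 reads) in NTD brain, against 18.1 FPKM (624 reads) in control brain, 1.32-fold lower (1.17 to 1.49). It had 16.6 FPKM (562 reads) in NTD spine, against 15.2 FPKM (503 reads) in control spine, 1.09-fold higher with an interval of 0.969 to 1.24. Hes1 and Hes5 were thus both lower in NTD brain, while in NTD spine Hes5 was lower and Hes1 stood near its control. The ratio of Hes1 to Hes5 was 4.06 in NTD brain (3.18 to 5.24) and 2.73 in control brain (2.28 to 3.28), and 8.75 in NTD spine (6.41 to 12.2) and 2.90 in control spine (2.37 to 3.58).

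Hey1 (ENSMUSG00000040289, chr3:8663359-8667256, minus strand) encodes a Notch-induced repressor of vessels, heart and somites. Its range over the libraries was the smallest of the members, 1.19-fold, next to 1.20-fold for Notch3. It stood at 10.97 FPKM (590 reads) in NTD brain and 11.7 FPKM (647 reads) in control brain, and 11.7 FPKM (632 reads) in NTD spine and 13.1 FPKM (695 reads) in control spine. The folds were 1.07 lower in NTD brain (0.954 to 1.196) and 1.12 lower in NTD spine (1.01 to 1.25). Its neighbours in the order of levels all had intervals that ran into each other. Summed over Hes1, Hes5, Hey1, Hey2 and Heyl, the level was 31.9 FPKM in NTD brain and 40.7 FPKM in control brain, with 37.1 FPKM in NTD spine and 41.1 FPKM in control spine. Hes5 made up 10.6% of it in NTD brain and 16.3% in control brain, and 5.13% in NTD spine and 12.7% in control spine.

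**Figure D3:**
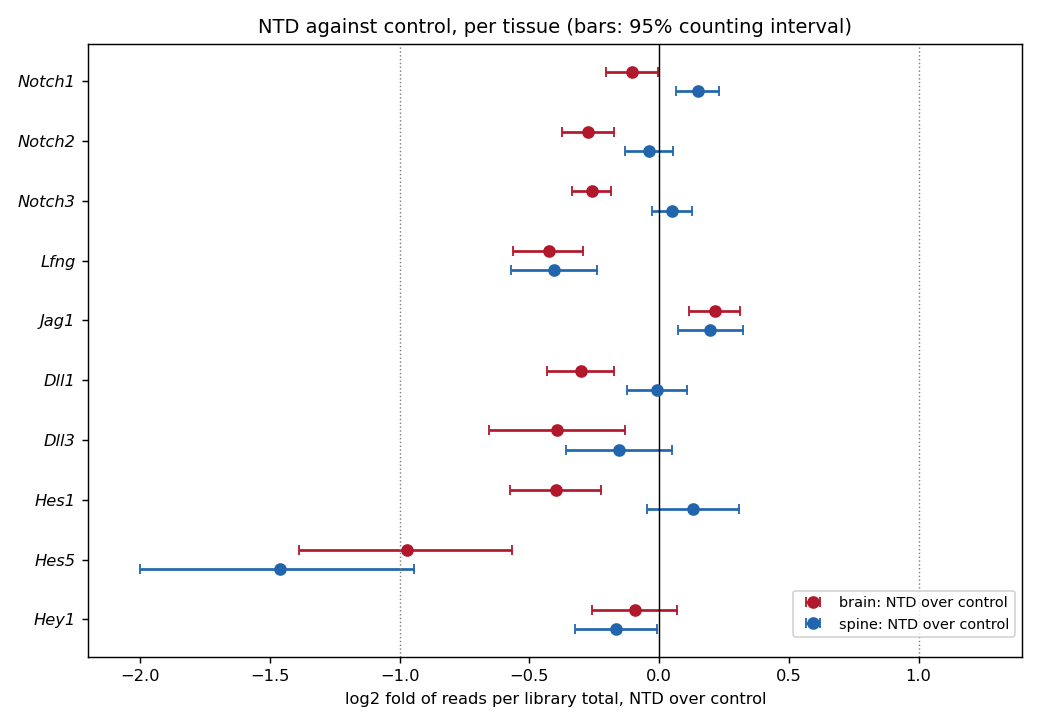
log2 fold of recovered reads per library total, NTD over control, for each member in brain and in spine, with 95% exact binomial intervals as bars and dotted lines at 2-fold. Hes5 lies lowest in both tissues, Jag1 is above equality in both, and Notch1, Notch3 and Hes1 lie on opposite sides of equality in brain and spine.

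Set side by side, brain and spine shared a direction for 7 members. Lower in both were Notch2, Dll1, Dll3, Lfng, Hes5 and Hey1, 6 of 10 where 41.1% of all tested genes were lower in both, although the spine log2 ratios of Notch2 and Dll1 were 0.02 and 0.05 with libraries scaled to equal FPKM sums. Jag1 was higher in both, and Notch1, Notch3 and Hes1 pointed opposite ways, 3 of 10 where 32.0% of tested genes did. With counting intervals that left out equality in both tissues, Lfng and Hes5 were lower, 2 of 10 where 13.8% of genes were. The difference between the tissues, as the log2 fold in spine minus that in brain with a 95% Wald interval for counting, was 0.53 for Hes1 (0.28 to 0.77), 0.31 for Notch3 (0.20 to 0.41) and 0.25 for Notch1 (0.12 to 0.38). It was 0.24 for Notch2 (0.10 to 0.37) and 0.30 for Dll1 (0.12 to 0.47). For Dll3, Jag1, Lfng, Hes5 and Hey1 it lay within counting error. That of Hes5 was -0.49, with an interval of -1.13 to 0.15, so the lower value in spine was not separable from that in brain at this depth.

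Outside the 10 members, 76 genes of the pathway and of its neural and somite targets were listed in 8 lists, and 61 reached a mean of 1 FPKM. Of the 61, 41 were lower and 20 higher in NTD brain, with a median log2 ratio of -0.11. Of all tested genes 56.4% were lower there, with a median of -0.03. In NTD spine 36 were lower and 25 higher, with a median of -0.05. Of all tested genes 58.0% were lower there, with a median of -0.04. The same shares stand beside the list counts that follow. At least 2-fold, 1 was lower and 1 higher in NTD brain, where 0.781% of tested genes were lower and 0.804% higher. In NTD spine 3 were lower and 1 higher, where the shares were 0.680% and 0.649%. Of the 6 other ligand and receptor genes, 4 passed, with 3 lower and 1 higher in NTD brain (median -0.20) and 1 lower and 3 higher in NTD spine (median 0.05). After adjustment for GC content and length these medians were -0.05 in brain and 0.17 in spine. Dlk1, a non-canonical ligand of the family, was the highest (0.06 in brain and 0.14 in spine), Dll4 the lowest in brain (-0.24) and Notch4 in spine (-0.10). The nuclear complex, all 15 genes measured, had 12 lower and 3 higher in NTD brain (median -0.12) and 8 lower and 7 higher in NTD spine (median -0.00). With the same adjustment its medians were -0.03 in brain and 0.08 in spine. Rbpj, which encodes the DNA-binding partner of Notch, was the lowest of the 15 in both tissues. It stood at 4.08 FPKM in NTD brain and 5.81 FPKM in control brain, 1.42-fold lower (1.30 to 1.55), and at 4.34 FPKM in NTD spine and 5.41 FPKM in control spine, 1.25-fold lower (1.14 to 1.36). Snw1, which encodes a splicing and transcription cofactor also called SKIP, was the highest, at 14.4 FPKM in NTD brain and 12.5 FPKM in control brain, with 13.3 FPKM in NTD spine and 11.1 FPKM in control spine. Maml1, a Mastermind-like co-activator, was 1.20-fold lower in NTD brain (1.11 to 1.30) and at 13.28 FPKM in both NTD spine and control spine.

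The machinery that cuts Notch had no shared direction, with 4 of 9 genes lower and 5 higher in NTD brain (median 0.01) and 5 lower and 4 higher in NTD spine (median -0.00). Adam17, a protease that sheds membrane proteins, had its highest log2 ratio in both tissues, 0.15 each. The lowest were Aph1b in brain (-0.22) and Psenen in spine (-0.25), both subunits of the gamma-secretase that cuts Notch within the membrane. Genes of Notch glycosylation and ligand endocytosis, 8 of 9 past the filter, had 5 lower and 3 higher in each tissue, with medians of -0.08 in brain and -0.14 in spine. Their log2 ratios ran between -0.33 for Neurl1a and 0.09 for Mib1 in brain, both ubiquitin ligases of ligand uptake, and between -0.49 for Mfng and 0.16 for Poglut1, a Notch glucosyltransferase, in spine. Genes listed as negative regulators of the pathway, 8 of 9 past the filter, had 7 lower and 1 higher in NTD brain (median -0.21). In NTD spine 6 were lower and 2 higher (median -0.32). After adjustment for GC content and length the median was -0.20 in each tissue. The list includes Deltex genes, and whether each listed gene limits Notch in these tissues was not tested. The lowest of them in spine was Nrarp, a Notch target whose product limits Notch signalling, with 1.54 FPKM in NTD spine and 2.55 FPKM in control spine, 1.65-fold lower (1.21 to 2.28). Nrarp was also lower in brain, at 1.58 FPKM in the NTD library and 2.36 FPKM in the control, 1.50-fold (1.09 to 2.07). The lowest in brain was Dtx4, a Deltex ubiquitin ligase gene, 1.39-fold lower (1.32 to 1.46), at 31.5 FPKM in NTD brain and 43.7 FPKM in control brain. Itch, another ubiquitin ligase, was the highest, with log2 ratios of 0.08 in brain and 0.13 in spine.

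The remaining Hes and Hey genes did not share a direction. Of 9 listed, 4 passed the filter, with 2 lower and 2 higher in each tissue. Hes6, whose product favours neurogenesis by opposing Hes1, was 1.30-fold lower in NTD brain (1.17 to 1.45) and 1.63-fold lower in NTD spine (1.44 to 1.86), at 13.3 FPKM in NTD spine and 21.7 FPKM in control spine. Hes3, a progenitor repressor of the midbrain and hindbrain, was 1.99-fold higher in NTD spine (1.46 to 2.74), at 3.93 FPKM against 1.98 FPKM in control spine, and 1.15-fold higher in NTD brain (0.960 to 1.38). Heyl was lowest in brain, with 1.34 FPKM in the NTD library and 2.34 FPKM in the control, 1.74-fold lower (1.38 to 2.21), and Hey2 was highest there, at 2.49 FPKM in the NTD library and 1.91 FPKM in the control. Hes7, the oscillating repressor of the segmentation clock, was below the filter, with 51 reads in NTD spine and 59 in control spine and 1 in each brain library.

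Proneural genes, which Hes proteins repress and which drive progenitors to become neurons, had the lowest medians of the 8 lists, -0.78 in brain and -0.75 in spine. Of 10 listed, 7 passed the filter and those 7 were lower in both NTD tissues, as were 41.1% of all tested genes. By the interval 6 were lower in NTD brain and 7 in NTD spine, beside 25.8% and 26.6% of genes. Olig2 was the highest of them, with log2 ratios of -0.02 in brain and -0.23 in spine. After adjustment for GC content and length the medians were -0.69 in brain and -0.66 in spine. Atoh1 was at least 2-fold lower in both tissues and Neurog1 in spine. Neurog1, a gene of sensory and dorsal neurons, stood at 5.47 FPKM (152 reads) in NTD brain and 9.71 FPKM (277 reads) in control brain, and at 2.39 FPKM (67 reads) in NTD spine and 6.09 FPKM (167 reads) in control spine. It was 1.77-fold lower in NTD brain (1.45 to 2.18) and 2.54-fold lower in NTD spine (1.90 to 3.43). Neurog2, of motor and sensory neurons, was 1.92-fold lower in NTD brain (1.55 to 2.38) and 1.78-fold lower in NTD spine (1.52 to 2.09). Atoh1, which marks dorsal neural tube and hindbrain progenitors, was counted with 19 reads in NTD brain against 91 in control brain, 4.66-fold lower (2.82 to 8.10), and with 4 reads in NTD spine against 51 in control spine, 13.0-fold lower (4.78 to 49.6). It passed the filter through its control levels of 2.54 FPKM in brain and 1.48 FPKM in spine. Hes5 and the proneural genes were thus lower in the same libraries. The ratio of Neurog1 to Hes5 was 1.62 in NTD brain (1.22 to 2.16) and 1.46 in control brain (1.20 to 1.79), and 1.26 in NTD spine (0.846 to 1.89) and 1.16 in control spine (0.913 to 1.49), with intervals that overlapped in each tissue.

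**Figure D4:**
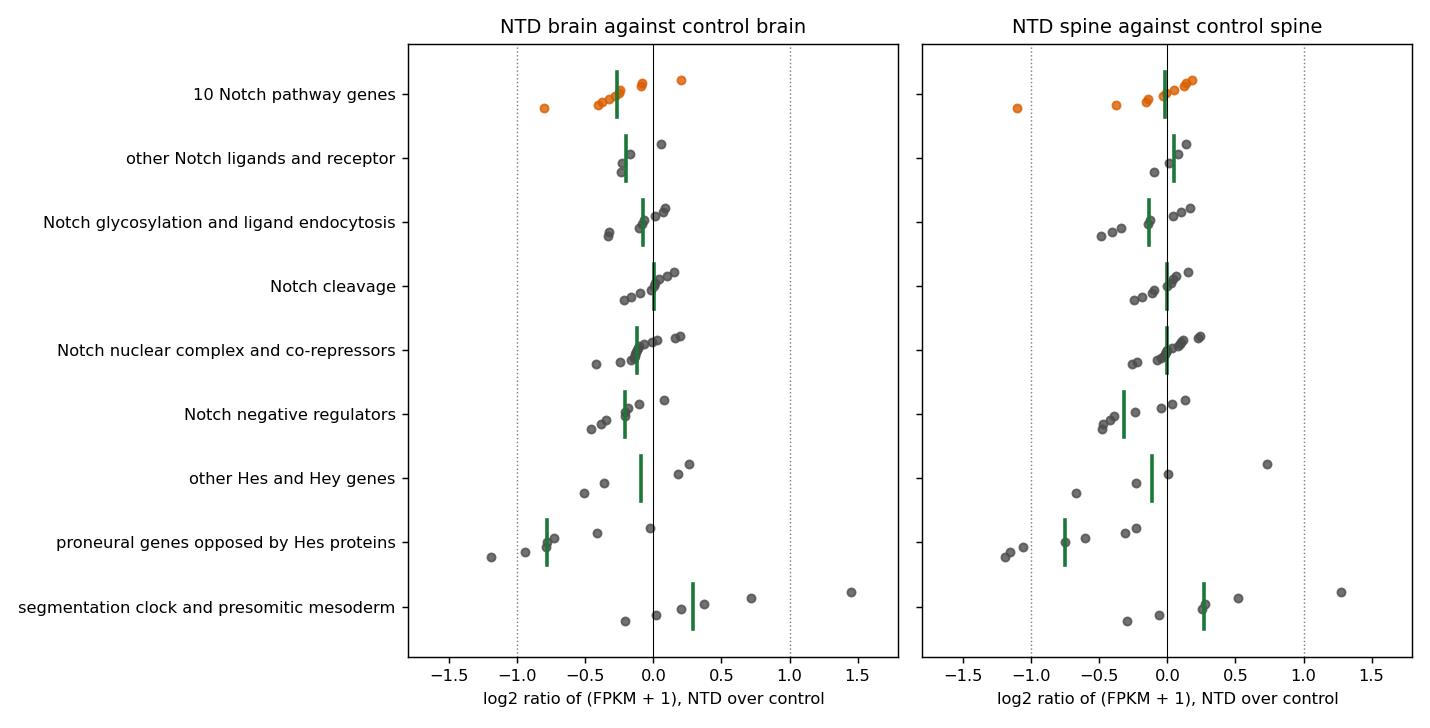
log2 ratio of FPKM + 1, NTD over control, for each gene past the filter (points) in the 10 members and in each pathway list, with the list median as a green bar, in brain and in spine, and dotted lines at 2-fold. The proneural genes have medians of -0.78 in brain and -0.75 in spine, while the cleavage machinery lies at 0.01 and -0.00.

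Most markers of neural cells were lower in the NTD libraries, as Hes5 was. Of all tested genes 56.4% were lower in NTD brain and 58.0% in NTD spine, by the interval 25.8% and 26.6%. Of 9 neural progenitor markers, 8 were lower in each NTD tissue, and the 1 higher was Hes3. By the interval 8 were lower in NTD brain, and 6 lower and 1 higher in NTD spine. The progenitor markers summed to 396 FPKM in NTD brain and 468 FPKM in control brain, and to 288 FPKM in NTD spine and 332 FPKM in control spine. Of 11 early neuron markers, 11 were lower in NTD brain and 10 in NTD spine, 9 by the interval in each. Their sums were 110 FPKM in NTD brain and 173 FPKM in control brain, then 53.0 FPKM in NTD spine and 99.0 FPKM in control spine. Both sums were lower in the NTD libraries, that of the neurons by more. Tubb3, a tubulin of new neurons, was 1.52-fold lower in NTD brain (1.43 to 1.61) and 2.15-fold lower in NTD spine (1.96 to 2.35), and Sox2, a transcription factor of neural progenitors, 1.12-fold (1.06 to 1.18) and 1.22-fold (1.13 to 1.31). The part of the neuron and progenitor markers in the results on the members was not tested. Per 100 FPKM of the progenitor sum, Hes5 stood at 0.855 FPKM in NTD brain and 1.42 FPKM in control brain, and at 0.659 FPKM in NTD spine and 1.58 FPKM in control spine. Per 100 FPKM of the early neuron sum Hes5 stood at 3.07 FPKM in NTD brain and 3.83 FPKM in control brain. In spine it stood at 3.59 FPKM in the NTD library and 5.29 FPKM in the control. Abundant genes weigh most in such sums. In NTD brain Vim gave 140 FPKM of the progenitor sum and Tubb3 63.8 FPKM of the neuron sum. The values of Hes5 per sum carry no interval. The ratio of Hes5 to Sox2 was 0.0469 in NTD brain (0.0368 to 0.0589) and 0.0823 in control brain (0.0695 to 0.0969), and 0.0506 in NTD spine (0.0365 to 0.0686) and 0.114 in control spine (0.0938 to 0.138).

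Segmentation and presomitic mesoderm genes, where Dll1, Dll3, Lfng and Notch1 also act, were mostly higher in the NTD libraries. Of 10 listed, 6 passed the filter, with 5 higher and 1 lower in NTD brain (median 0.29) and 4 higher and 2 lower in NTD spine (median 0.27), beside 43.6% and 41.9% of tested genes higher. By the interval 2 were higher in NTD brain and 4 in NTD spine, beside 16.1% and 17.2% of genes, and 0 were lower in either. Msgn1, a regulator of presomitic mesoderm fate, stood 2.85-fold higher in NTD spine (1.90 to 4.37), at 9.43 FPKM (96 reads) against 3.31 FPKM (33 reads) in control spine. In NTD brain Meox1, a homeobox gene of somites, was 3.25-fold higher (2.66 to 3.99), at 11.1 FPKM against 3.42 FPKM in control brain, still far below its 77.3 FPKM in NTD spine and 63.6 FPKM in control spine.

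Base composition moved with the ratios as well. Across all tested genes the log2 ratio of NTD over control was lower at higher GC content of the longest transcript, with Spearman's rho of -0.34 in brain and -0.36 in spine, genes not being independent replicates. The median was 0.07 in brain and 0.06 in spine for the 10% of genes with least GC, and -0.15 in brain and -0.17 in spine for the 10% with most. The members are rich in GC: 9 of 10, all but Jag1 at 48.8%, lay above the median of tested genes, and Notch3 (59.6%), Dll3 (61.0%), Lfng (58.8%) and Hes5 (62.1%) were among those 10% with most, which start at 58.0%. After adjustment for GC content and length, the members' median was -0.11 in brain, with 8 lower and 2 higher, and 0.085 in spine, with 4 lower and 6 higher. Hes5 kept log2 ratios of -0.67 in brain and -0.88 in spine, no longer 2-fold in spine, and Lfng of -0.26 and -0.18. Jag1 stood at 0.23 in brain and 0.19 in spine. Notch1 in brain and Dll1 and Dll3 in spine changed sign, to 0.02, 0.11 and 0.06.

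**Figure D5:**
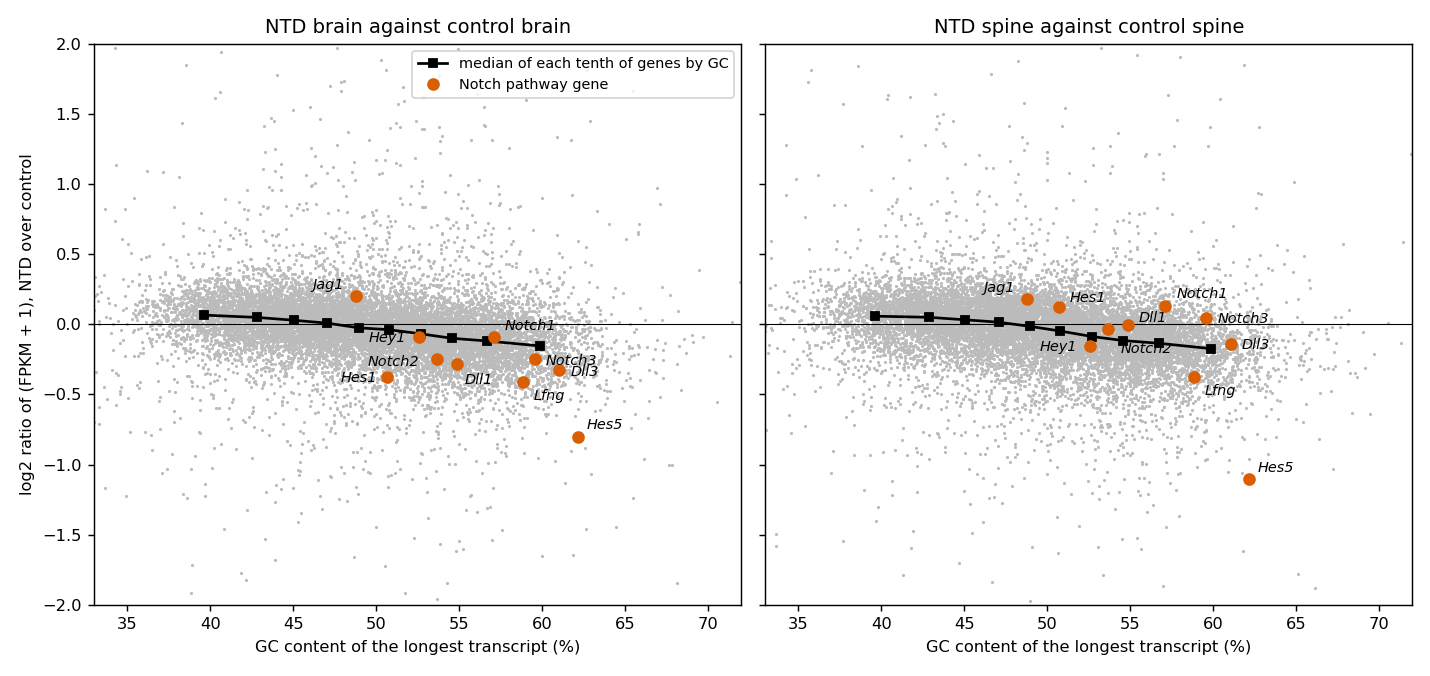
log2 ratio of FPKM + 1, NTD over control, against the GC content of the longest transcript (percent) for all tested genes (grey), the medians of 10 equal groups by GC (black squares) and the 10 Notch genes (orange), in brain and in spine. Genes beyond the axes are not drawn. The medians of the groups with least and most GC are 0.07 and -0.15 in brain and 0.06 and -0.17 in spine, and Hes5 lies below them in both.

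Between the control tissues the members lay in both directions, 5 lower and 5 higher in control brain than in control spine, where 48.6% of tested genes were lower and 51.4% higher. None was 2-fold different, where 2.38% of tested genes were at least 2-fold lower and 0.981% at least 2-fold higher, 3.36% in all. By the interval 5 were lower in control brain (Notch1, Notch2, Dll1, Dll3 and Hey1), as were 19.2% of genes, and 4 were higher (Notch3, Jag1, Lfng and Hes1), as were 20.0%. Jag1 was 1.56-fold higher (1.44 to 1.70) and Lfng 1.50-fold higher (1.36 to 1.66) in control brain, and Dll3 was 1.51-fold lower (1.29 to 1.76) and Notch1 1.30-fold lower (1.22 to 1.39). Hes5 was 1.27-fold higher in control brain, with an interval of 0.990 to 1.63. The 6 segmentation and presomitic genes past the filter were all lower in control brain, 5 of them at least 2-fold (Msgn1, Tbx6, Tcf15, Uncx and Meox1). All 9 neural progenitor markers were higher in control brain, as were 10 of 11 early neuron markers.

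The profiles most like those of Hes5, Dll1 and Dll3 over the 4 libraries were taken as the smallest Euclidean distances between centred log2 values of FPKM + 1, among protein-coding genes averaging 5 FPKM or more. For Hes5 these were Ina (0.12), Nhlh1 (0.15) and Pf4 (0.22) of 7228 genes, Ina standing at 4.48 FPKM in NTD brain and 7.52 FPKM in control brain, and at 2.38 FPKM in NTD spine and 6.22 FPKM in control spine. For Dll1 the nearest were Notch2 (0.0355), Magi1 (0.0433) and Ttc28 (0.0448) of 7227 genes. For Dll3 they were Ntn1 (0.0400), Plvap (0.0419) and Parvb (0.0638). With 4 libraries such distances describe these libraries only. Among members other than Hes5, an exon overlap on the opposite strand covers 20.5% of Dll1 (867 of 4219 bases, with A930024N18Rik), 1068 and 414 of the 14232 exon bases of Notch1 (with 0610009E02Rik and Gm13568) and 6.03% of Notch3 (with Gm17276), and one on the same strand covers 5.02% of Notch2 (with Gm42820). The overlapping genes of Notch1, Notch2 and Notch3 had at most 0.361 FPKM in any library. A930024N18Rik and Gm20421 were not among the 28765 genes with FPKM values, so their levels are not known.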

How the data were processed

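The authors deposited 1 table of FPKM values for 4 libraries of total RNA; HISAT2 2.0.1 and mouse build mm10 are named per the submitters' processing notes. The sources used here do not name the counter, its annotation, the strand setting or the read filters. Ensembl identifiers were matched to GENCODE M21 (28698 of 28765 matched, 67 not). FPKM values of a gene are whole multiples of what 1 read is worth, so reads were recovered from those steps: 28298 matched genes (98.6%) came out whole within 0.01 read in every library, all 10 members among them. The totals were 16470311 reads in NTD brain, 16911677 in control brain, 16605133 in NTD spine and 16272101 in control spine. PCR copies cannot be told apart in them.

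Log2 ratios were computed from FPKM with a pseudocount of 1, which understates the change of low genes, over all 12940 genes averaging 1 FPKM or more; 219 of these had no whole reads and no interval. A gene was called at 2-fold on that scale. With 1 library per group no test was run within a tissue, and no count test. Over both tissues, limma 3.58.1 in R 4.3.3 was fitted to the log2 values with tissue as a block, an alternative chosen after the data were seen. Folds are of recovered reads per library total, lower folds being the inverse, with 95% exact (Clopper-Pearson) conditional binomial intervals; levels have exact Poisson intervals. The design set no covariates. Adjustment for GC content and length took the median of each of 10 by 10 bins from each log2 ratio. The code was tested on simulated data. Alternatives were other pseudocounts, filters, fold limits and scalings, protein-coding genes only, recovered reads and the GC and length adjustment.

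All 10 members are named, and of each list the genes past 2-fold, or else the highest and lowest, besides fixed genes of the pathway such as Rbpj and Hes6; Mfng, Rfng and the ligands and receptors in the sums were added to complete their families. A gene that this rule also names is not reported here. Members and lists were chosen with earlier results of these data known. Promoter sequences are from RefSeq, build GRCm38.p6; gene positions are from GENCODE M21 on the same build, which mm10 shares. Python 3.11.15, numpy 2.4.6, scipy 1.17.1 and pandas 2.3.3 were used.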

Additional observations from a re-analysis of the deposited data

Results flagged for a closer look

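Notch1, Notch3 and Hes1 had opposite directions in brain and spine. On the scale of FPKM + 1, the log2 ratio of NTD over control in spine minus that in brain was 0.2266 for Notch1 (0.13 in spine and -0.09 in brain), 0.2949 for Notch3 (0.05 and -0.25) and 0.4978 for Hes1 (0.12 and -0.37). With 1 library per group the difference was not tested. The spine intervals of Notch3 and Hes1 include equality, and Notch1 in brain stands at 0.02 after adjustment for GC content and length, which removes the opposite directions for that gene.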

How the results depend on the processing

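No paired analysis was possible because, within a tissue, each group holds 1 library. With NTD and control paired by tissue instead, the fit with tissue as a block (chosen after the data were seen) called 0 genes, 83 with a pseudocount of 5, 1 of them a member (Hes5), and 75 with a mean of at least 5 FPKM, 0 of them members; without any 1 library it has no residual degrees of freedom. The count of all tested genes at least 2-fold different (205 in NTD brain, 172 in NTD spine, 435 between the control tissues) was 444, 380 and 712 with a pseudocount of 0.1, 38, 29 and 139 with one of 5, and 428, 364 and 677 from recovered reads. It was 593, 567 and 1058 at 1.5-fold, 26, 18 and 153 at 4-fold, and 77, 53 and 139 with a mean of at least 5 FPKM. Without a filter it was 335 in brain and 302 in spine, and among 11199 protein-coding genes 44 (35 higher, 9 lower) and 42 (11 higher, 31 lower). The count of members in spine, 1 (Hes5), was 0 with a pseudocount of 5, at 4-fold, after GC and length adjustment, and with a mean of at least 5 FPKM, which Hes5 itself does not reach. At 1.5-fold 1 member was counted in brain and 1 between the control tissues, where the count at 2-fold was 0. The GC and length adjustment moved the members' median to -0.11 in brain, against -0.27 as reported, and to 0.085 in spine, against -0.02. The median in spine was also 0.03 with equal FPKM sums and 0.02 with median ratio scaling, and that between the control tissues was -0.15 with a mean of at least 5 FPKM, against 0.04; the cause was not tested. Among the members, Notch2 in spine stood at 0.02 with equal sums and 0.00 with median ratio scaling, and Dll1 in spine at 0.05 and 0.03. Adjusted for GC and length, Notch1 in brain stood at 0.02, and Dll1 and Dll3 in spine at 0.11 and 0.06. Of the members' 30 log2 ratios (27 with a mean of at least 5 FPKM), 12 moved beyond their counting interval with that adjustment, 5 with a pseudocount of 5, and 0 under the other alternatives. Hes5 kept its lower direction in both NTD tissues under each alternative that gave it a ratio of its own, at -0.97 to -0.47 in brain and -1.46 to -0.57 in spine, and Lfng did so at -0.44 to -0.26 and -0.40 to -0.18. Depth limits Hes5 most, with 43 to 153 reads per library.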
